A study of Mus musculus with 6 samples.

Results

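Signals of the platelet-derived growth factor (PDGF) family, the vascular endothelial growth factor (VEGF) family and pigment epithelium-derived factor (PEDF) were compared between 2 states of neural stem cell, quiescent and activated, taken from the ventricular-subventricular zone of the mouse brain, the germinal layer along the lateral ventricles. The members were 10 genes chosen by name: the ligand genes Pdgfa, Pdgfb, Pdgfc, Vegfa, Vegfb and Vegfc, the receptor genes Pdgfra, Pdgfrb and Kdr, and Serpinf1, which encodes PEDF. Every probe set (a group of short probes for one transcript) that the platform annotation gives to exactly 1 of these genes was used. This gave 20 probe sets of 10 genes, out of 34945 probe sets of 18193 genes. Quiescent cells were sorted from brains of adult mice as positive for GFP under the GFAP promoter, positive for CD133 and negative for CD24. The activated cells were sorted by the same 3 marks and were in addition positive for the EGF receptor. Both populations therefore share the GFAP reporter, which marks cells in which that promoter is active, including mature astrocytes. The sources used here do not give strain, age beyond adult, sex or the number of animals pooled. There were 3 one-colour arrays per population, described as biological replicates, and their small number limits the precision of every value.

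PDGF ligands are dimers that bind the receptor tyrosine kinases PDGFR alpha and PDGFR beta. PDGFR alpha is best known in the brain as a mark of oligodendrocyte precursors, and PDGFR beta as a mark of the pericytes that wrap capillaries. VEGF-A is the main growth signal for endothelial cells through the receptor VEGFR2, the product of Kdr, and its gene is a classic target of the hypoxia-inducible factors. PEDF is a secreted protein of the serpin family that restrains vessel growth and is known in this niche as a self-renewal signal for stem cells.

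The promoter windows of 5 members are shown, as examples of genes that fell, were dim and lower, or differed little. Vegfa fell strongly, Pdgfc fell, Kdr and Serpinf1 were dim and lower on activated arrays, and Vegfb differed little. RefSeq sequences of the assembly GRCm38.p6 were at hand for 8 of the 10 members. Not shown are the windows of Pdgfra, whose brightest probe set was higher on activated arrays, of Pdgfa, whose probe sets disagreed, and of Vegfc. Each run below is the 250 bases before the annotated start, 5′ to 3′, and for Vegfa, which has 2 annotated starts, the outermost one. Capitals mark the GC box GGGCGG and the hypoxia response cores ACGTG and GCGTG, each searched on both strands.
Vegfa, chr17:46032378-46032627, minus strand: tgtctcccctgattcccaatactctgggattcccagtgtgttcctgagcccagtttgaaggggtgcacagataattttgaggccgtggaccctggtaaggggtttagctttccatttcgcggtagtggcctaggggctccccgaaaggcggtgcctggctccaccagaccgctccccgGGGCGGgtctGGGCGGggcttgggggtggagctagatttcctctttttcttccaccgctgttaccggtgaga
Pdgfc, chr3:81036166-81036415, plus strand: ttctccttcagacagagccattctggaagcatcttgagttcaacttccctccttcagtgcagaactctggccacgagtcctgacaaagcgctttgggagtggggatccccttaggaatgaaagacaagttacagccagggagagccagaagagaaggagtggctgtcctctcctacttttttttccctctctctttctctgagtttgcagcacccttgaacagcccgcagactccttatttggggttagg
Kdr, chr5:75978456-75978705, minus strand: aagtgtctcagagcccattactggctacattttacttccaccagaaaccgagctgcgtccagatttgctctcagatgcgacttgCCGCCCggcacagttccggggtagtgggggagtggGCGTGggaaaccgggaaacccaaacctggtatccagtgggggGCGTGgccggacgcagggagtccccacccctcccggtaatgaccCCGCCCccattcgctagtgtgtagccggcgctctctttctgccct
Serpinf1, chr11:75422624-75422873, minus strand: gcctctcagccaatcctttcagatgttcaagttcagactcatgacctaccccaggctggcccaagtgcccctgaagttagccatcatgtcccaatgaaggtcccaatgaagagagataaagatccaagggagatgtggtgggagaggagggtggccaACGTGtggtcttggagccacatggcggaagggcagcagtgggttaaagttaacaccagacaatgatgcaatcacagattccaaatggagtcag
Vegfb, chr19:6987652-6987901, minus strand: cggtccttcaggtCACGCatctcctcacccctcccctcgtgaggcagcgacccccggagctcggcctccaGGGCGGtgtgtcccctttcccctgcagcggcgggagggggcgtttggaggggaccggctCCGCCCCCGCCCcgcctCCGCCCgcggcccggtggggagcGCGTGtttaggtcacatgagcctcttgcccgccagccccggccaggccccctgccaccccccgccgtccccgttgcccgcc
The Vegfa window held 2 GC boxes, that of Kdr 2 and that of Vegfb 4, while those of Pdgfc and Serpinf1 held 0. The window of the second Vegfa start, inside the gene, held 1 GC box, 1 ACGTG and 1 GCGTG, whereas the outermost one held 0 of either hypoxia core. Only these 250 bases were searched, so sites further from a start were not counted. Among all 32851 windows of the same length, 32.7% held at least 1 GC box. Of the 5 windows shown, ACGTG occurred once in that of Serpinf1 (n = 1), and 16.6% of all windows held it. GCGTG occurred 2 times in the Kdr window and 2 times in that of Vegfb, and 28.2% of all windows held it. No TATAAA was found in these 5 windows (0 each), against 12.4% of all windows, and the matches shared 0 bases with one another. The share of G and C was 50.8% for Pdgfc, 51.6% for Serpinf1, 59.2% for Vegfa, 61.6% for Kdr and 76.4% for Vegfb, beside a median of 52.4% over all windows. The fallen genes Vegfa and Pdgfc thus had promoter windows that differed in these letters.

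All values are log2 MAS5 signals, a scale on which 1 unit is a doubling, and differences are activated minus quiescent. Genes were tested with limma on the brightest probe set of each gene, and a call meant an adjusted p under 0.05 after Benjamini-Hochberg correction over the 11576 genes bright enough to test. Over all of them, 34.9% were called, 17.3% higher and 17.6% lower in activated cells. Of the 4 genes behind the sort, Egfr was 2.11 ± 0.24 (SE) higher, Gfap fell by 4.18 ± 0.58, Prom1, which encodes CD133, fell by 1.22 ± 0.32 and Cd24a was 4.13 ± 0.50 higher, although both sorts removed cells with CD24 protein. The EGF receptor protein separated the groups, so the Egfr difference is no finding. The Prom1 call was lost without quiescent array 2 (adjusted p = 0.0558) and without activated array 1 (adjusted p = 0.0588), and with hybridisation controls as the scale its adjusted p was 0.309. Several array measures moved with the groups. Array background, the 95th percentile of 27 control probe sets for bacterial transcripts, was 5.67 ± 0.37 (SD) on quiescent and 4.60 ± 0.07 on activated arrays. Hybridisation controls averaged 14.3 ± 0.53 and 13.7 ± 0.05, and the Gapdh difference between 3′ and 5′ control probe sets, a sign of RNA quality, 2.05 ± 0.52 and 1.37 ± 0.17. Each of these gave a two-sided exact permutation p of 0.1, the smallest that 3 against 3 arrays allow. The like difference for actin, -0.05 ± 0.16 on quiescent and 0.07 ± 0.16 on activated arrays, did not separate the groups (two-sided exact permutation p = 0.4). Scaling arrays to their hybridisation controls moved the median over all tested genes from a difference of 0.01 to one of 0.66, so every difference here is relative to the deposited scaling. The part of these measures in the results was not tested.

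Of the 10 members, 6 were bright enough to be tested, and 3 of these fell in activated cells: Pdgfrb, Vegfa and Pdgfc. By limma 0 of the 6 rose, while 1, Pdgfra, was higher at an unadjusted p under 0.05. Pdgfa, Pdgfra and Vegfb did not pass the test. Pdgfb, Vegfc, Kdr and Serpinf1 were too dim for the filter. A gene can pass the filter through its brighter group alone, so these counts are a description of the members and nothing is read from them. Over the 20 member probe sets, quiescent arrays lay entirely above activated ones for 10, activated above quiescent for 3, and the groups overlapped for 7. Without any filter, 24.4% of all probe sets had quiescent arrays above and 16.3% had activated arrays above.

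**Figure D1:**
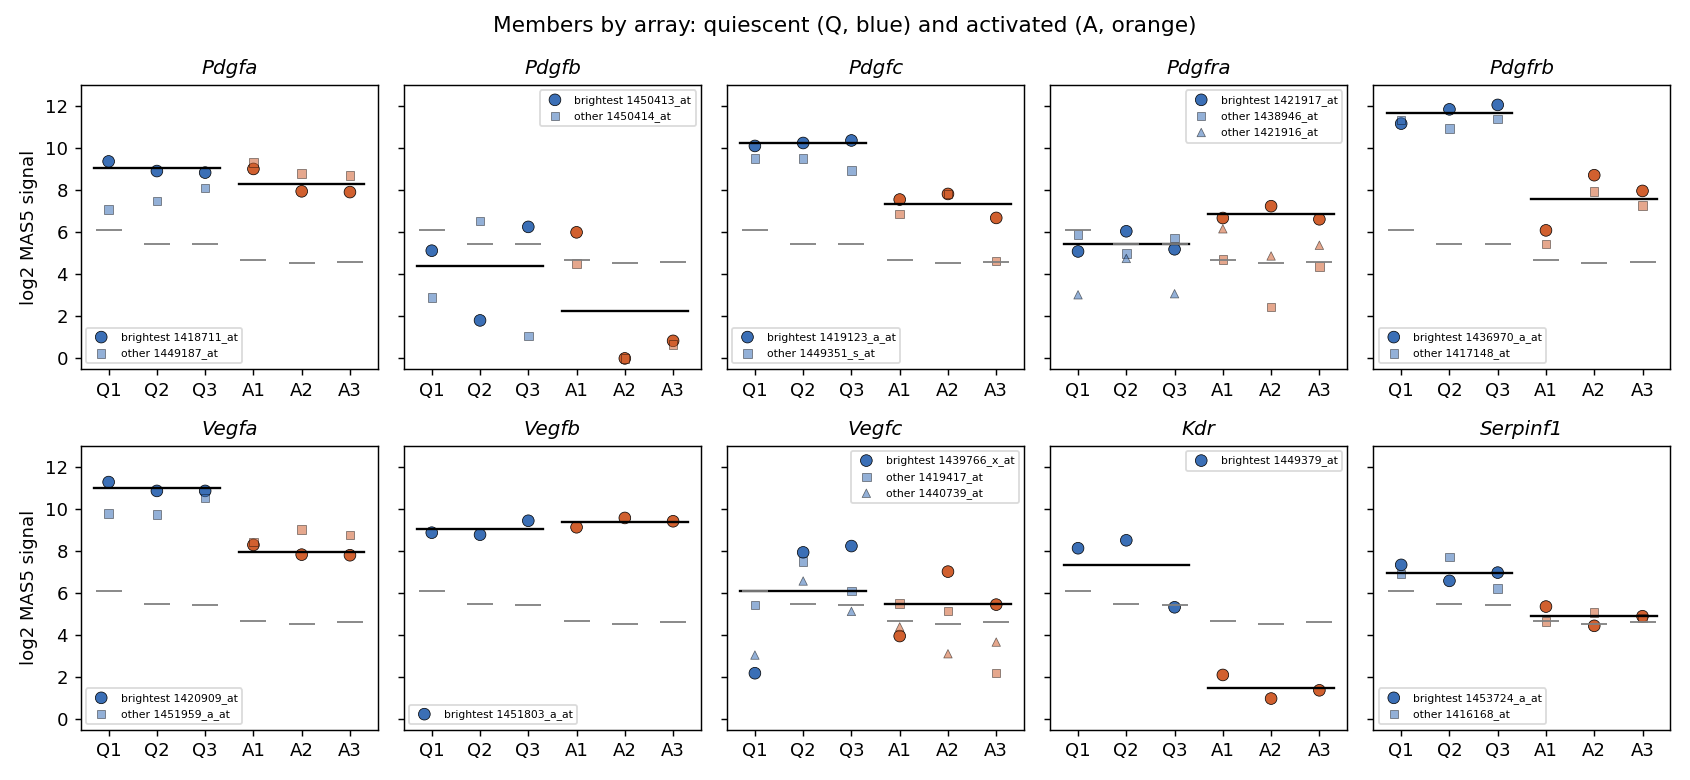
Log2 MAS5 signal (vertical axis) of each member on the 3 quiescent (Q, blue) and 3 activated (A, orange) arrays, with large circles for the brightest probe set, small symbols for further probe sets, black lines for group means of the brightest and grey dashes for array background. Pdgfc, Pdgfrb and Vegfa separate the groups well above background, whereas Pdgfb and the activated values of Kdr lie near or below it and Vegfc scatters from below to well above it.

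Among the PDGF ligands, Pdgfc was clearly lower in activated cells. It encodes PDGF-C, a ligand that is secreted in latent form and is released by proteolysis of its CUB domain. Its brightest probe set read 10.10, 10.24 and 10.36 on quiescent arrays 1 to 3 and 7.55, 7.82 and 6.68 on activated arrays 1 to 3. The groups did not overlap, and all 6 values were above background. Pdgfc fell by 2.88 ± 0.42 (adjusted p = 0.000562, limma), a 7.38-fold lower level. Its second probe set read 9.51, 9.50 and 8.94 on quiescent and 6.88, 7.81 and 4.63 on activated arrays, a fall of 2.88 ± 0.73 (adjusted p = 0.0127 in the limma fit over 22608 probe sets, of which 31.9% were called). Activated array 3 was the lowest for both probe sets and was just above its background of 4.60 for the second. On quiescent array 3, where the pericyte and endothelial sums given further on were lowest among quiescent arrays, the brightest probe set was at its highest and the second at its lowest quiescent value. Both identifiers carry a suffix for probes shared between transcripts, so Pdgfc had no value when such probe sets were left out.

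Pdgfa, the gene for the PDGF-A chain that signals through PDGFR alpha, gave opposite readings from its 2 probe sets. The brighter one read 9.36, 8.91 and 8.83 on quiescent and 9.01, 7.94 and 7.91 on activated arrays. Activated array 1 lay among the quiescent values, and the difference of -0.75 ± 0.44 was not called (adjusted p = 0.207, limma, 95% interval -1.72 to 0.23). The other probe set read 7.08, 7.48 and 8.11 on quiescent and 9.32, 8.80 and 8.69 on activated arrays. There all activated values were above the quiescent ones, and the signal was 1.38 ± 0.45 higher (adjusted p = 0.0387, limma over probe sets). The difference between the 2 readings was 2.13, with a two-sided exact permutation p of 0.1, the smallest possible. From the mean of both probe sets the difference was 0.31, so no direction is given for Pdgfa as a gene.

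Pdgfb, which encodes the PDGF-B chain that vessels use to recruit pericytes, was at the limit of detection. Its brighter probe set read 5.12, 1.81 and 6.25 on quiescent and 5.99, 0 and 0.83 on activated arrays. Of these, 2 quiescent and 2 activated arrays were at or below background. The second probe set was above background on quiescent array 2 alone, at 6.53. Neither probe set was tested, and the groups overlapped for both.

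Of the PDGF receptor genes, Pdgfrb was called lower and Pdgfra was not called. Pdgfrb, the PDGFR beta gene, had the largest difference among the tested members. Its brightest probe set read 11.16, 11.84 and 12.05 on quiescent and 6.09, 8.71 and 7.96 on activated arrays. Activated array 1 was the lowest, and still above background. Pdgfrb fell by 4.10 ± 0.59 (adjusted p = 0.000556, limma), 17.1-fold lower from the group means. A second probe set, without shared-transcript suffix, read 11.33, 10.94 and 11.37 against 5.45, 7.94 and 7.26, and fell by 4.33 ± 0.57 (adjusted p = 0.000376, limma over probe sets). Leaving out single arrays kept the Pdgfrb difference between -4.66 and -3.35.

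Because Pdgfrb is a pericyte mark, pericyte markers were read on the same arrays. In a sorted population, fewer cells of a type and less RNA per cell cannot be told apart. Of 14 pericyte markers, 5 were bright enough to test, and 4 fell and 0 rose in limma (0 rose at an unadjusted p under 0.05 too), with a median of -2.28. The summed linear signal of all 14 was between 1438 and 6154 on quiescent and between 346 and 542 on activated arrays. Vtn fell by 4.15 ± 0.84 (adjusted p = 0.00367, limma) and Notch3 fell by 2.28 ± 0.51 (adjusted p = 0.00615, limma). On activated arrays 7 of the 14 were at or below background throughout, among them Kcnj8, Abcc9 and Anpep. Only 2 of the list fell after quantile normalization, 1 after scaling to the hybridisation controls, and 2 each without quiescent array 1 or activated array 3. Quiescent array 3 had the highest Pdgfrb value, 12.05, and the lowest summed pericyte signal among quiescent arrays, 1438 against 3752 and 6154. Most pericyte markers were at their lowest quiescent value on that array. Rgs5 and Kcnj8 read 5.09 and 4.88 there, below the background of 5.45, against 9.70 and 5.72 on quiescent array 1 and 10.82 and 9.16 on quiescent array 2. Vtn read 7.20 there against 10.38 and 10.50. Abcc9, Anpep, Acta2, Higd1b, Tbx18 and Myh11 were also at their lowest quiescent value. Notch3, at 8.88 against 8.44 and 8.95, was close to its other quiescent values, and Ndufa4l2 read 7.15 against 8.29 and 6.88. Des and Tagln lay between their other quiescent values. Only Cox4i2 was at its highest, 8.06 against 7.43 and 4.30. Apart from Vtn and Notch3, the listed markers named here were chosen for mention after their values were seen. The part of pericyte RNA in the Pdgfrb reading was not tested.

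**Figure D2:**
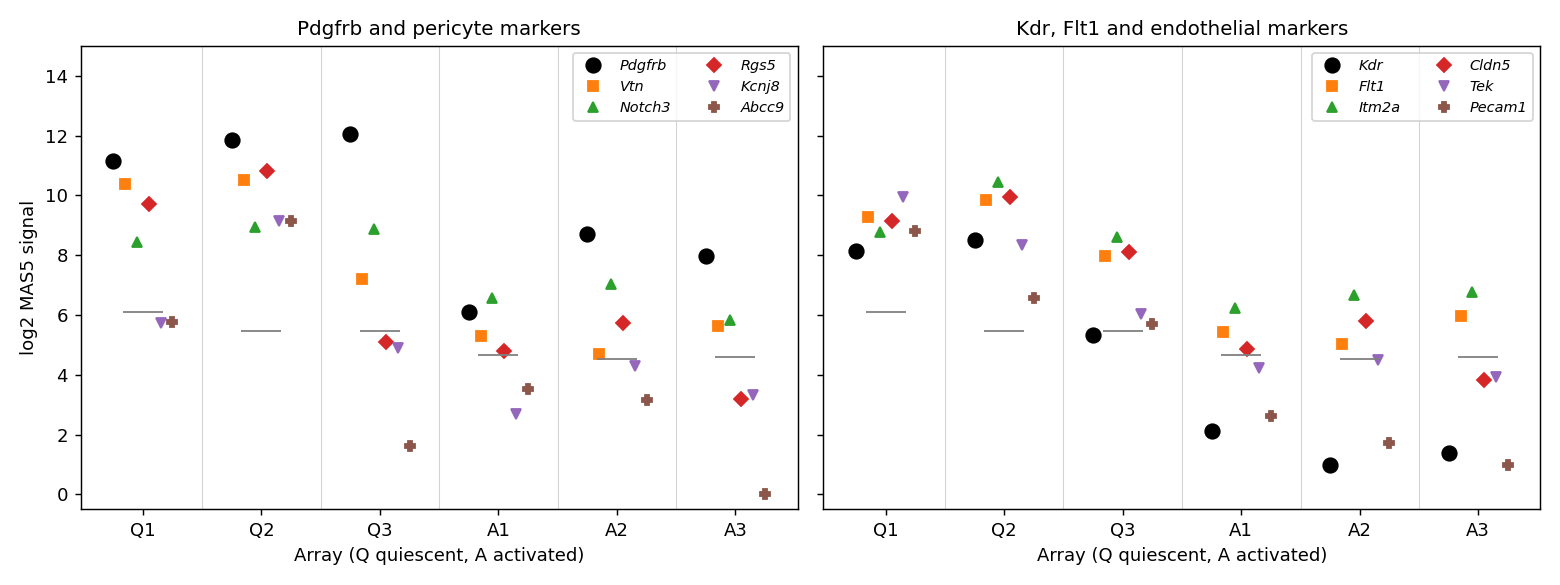
Log2 MAS5 signal (vertical axis) per array of Pdgfrb with pericyte markers (left) and of Kdr and Flt1 with endothelial markers (right), with grey dashes for array background. On Q3 Pdgfrb is at its highest, 12.05, while Rgs5, Kcnj8 and Abcc9 lie below background. There Vtn is at its lowest quiescent value, 7.20, Notch3 reads 8.88, and Kdr reads 5.32, below background. The markers drawn are a selection from the lists. Of the pericyte markers not drawn, only Cox4i2 is at its highest quiescent value on Q3, 8.06. Higd1b, at 3.60, Anpep, Acta2, Tbx18 and Myh11 are at their lowest.

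Pdgfra, the PDGFR alpha gene, was dim in both groups. Its brightest probe set read 5.08, 6.04 and 5.19 on quiescent and 6.67, 7.24 and 6.61 on activated arrays. Activated values were all above quiescent ones, of which 2 were at or below background. The difference was 1.40 ± 0.63 (adjusted p = 0.105, limma, 95% interval 0.02 to 2.79), and against background the activated signal was at least 1.97-fold higher. It was called without a mean-variance trend (adjusted p = 0.0271) and with arrays centred on their medians (adjusted p = 0.032). The other 2 probe sets were dimmer and went opposite ways. One read 3.02, 4.75 and 3.08 on quiescent arrays, all at or below background, and 6.16, 4.87 and 5.38 on activated arrays. The last read 5.89, 5.0 and 5.73 on quiescent and 4.70, 2.43 and 4.37 on activated arrays, so that quiescent values were above. Of those, 2 quiescent and 2 activated values were at or below background. Neither probe set was tested, and no direction is read from them.

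Oligodendrocyte precursor markers did not move as one. Of 9 matched markers 5 were tested, 1 rose and 0 fell in limma (2 and 1 at an unadjusted p under 0.05), and the median was -0.08. Without quiescent array 3, 2 rose and 1 fell, and without activated array 1, 1 rose and 1 fell. Olig2, a factor of oligodendrocyte precursors that transit-amplifying progenitors also use, was 3.22 ± 0.67 higher (adjusted p = 0.00432, limma). It was chosen for mention after its values were seen. Olig1 differed by -0.08 and the proteoglycan gene Cspg4 by -2.79 (adjusted p = 0.0599, limma, and 0.027 without quiescent array 3 or 0.0402 without activated array 1). Summed over the list, signal was 1434 to 5896 on quiescent and 3226 to 4875 on activated arrays, and Matn4 was at background on every array. Their part in the Pdgfra reading was not tested.

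Of the VEGF ligands, Vegfa fell and Vegfb did not pass the test. The brighter Vegfa probe set read 11.27, 10.85 and 10.85 on quiescent and 8.28, 7.82 and 7.79 on activated arrays. The SD was 0.24 among quiescent and 0.27 among activated arrays, and the groups were far apart. Vegfa fell by 3.03 ± 0.34 (adjusted p = 0.000139, limma), 8.15-fold lower. The second probe set read 9.77, 9.74 and 10.52 against 8.43, 9.0 and 8.75, a smaller fall of 1.28 ± 0.37 (adjusted p = 0.0223, limma over probe sets). The 2 readings differed in size by 1.75 (two-sided exact permutation p = 0.1, the smallest possible). Without quiescent array 1 or quiescent array 2 the second probe set became the brighter, and Vegfa fell by 1.40 (adjusted p = 0.0305) and by 1.42 (adjusted p = 0.0341). Pericyte and endothelial markers also fell in activated cells, and their part in the Vegfa reading was not tested. Their sums were lowest among quiescent arrays on array 3, where the 2 Vegfa probe sets read 10.85 and 10.52.

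Vegfb encodes VEGF-B, a ligand of VEGFR1. Its only probe set read 8.86, 8.77 and 9.43 on quiescent and 9.12, 9.56 and 9.41 on activated arrays. The groups overlapped, and the difference of 0.34 ± 0.36 was not called (adjusted p = 0.482, limma, 95% interval -0.46 to 1.14). Vegfc, the gene for a ligand of lymphatic vessels that is also processed by proteases, was not tested. Its brightest probe set read 2.18, 7.93 and 8.23 on quiescent and 3.95, 7.01 and 5.44 on activated arrays. Quiescent array 1 was far below the other two, and the groups overlapped for all 3 Vegfc probe sets.

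Kdr, the VEGFR2 gene, was read by 1 probe set at 8.12, 8.50 and 5.32 on quiescent and 2.10, 0.98 and 1.37 on activated arrays. All activated arrays were below background, as was quiescent array 3. With the activated arrays held at their background, Kdr was at least 6.58-fold lower in activated cells. Its mean was under the filter, and in the limma fit with no filter, where 13.2% of genes were called lower, its adjusted p was 0.00179. Endothelial markers fell on the same arrays. Of 15 matched markers 6 were tested, 4 fell and 0 rose in limma (5 and 0 at an unadjusted p under 0.05), with a median of -2.39. Summed signal of the list ran from 2297 to 5735 on quiescent and from 475 to 561 on activated arrays. The tight junction gene Cldn5 was at least 15.7-fold lower (adjusted p = 0.00119, limma) and Itm2a fell by 2.72 ± 0.57 (adjusted p = 0.00437, limma). Pecam1, Tie1, Tek and Emcn were at or below background on all activated arrays. Only 2 markers fell without quiescent array 1. The lowest quiescent sum, 2297, was on quiescent array 3, the array on which Kdr was at background. The part of endothelial RNA in the Kdr reading was not tested.

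Serpinf1 was dim, and its 2 probe sets gave like readings. The brighter read 7.33, 6.57 and 6.97 on quiescent and 5.35, 4.44 and 4.89 on activated arrays, and the other 6.91, 7.72 and 6.22 against 4.64, 5.07 and 4.80. Quiescent arrays were above activated ones for both, and 1 activated array was at or below background for each. Serpinf1 was at least 4.10-fold lower by the first and at least 4.29-fold lower by the second. With no filter the limma fit gave a difference of -2.06 ± 0.70 (adjusted p = 0.0513), and with a filter at the 25th percentile an adjusted p of 0.0327. It also passed the filter without activated array 1, 2 or 3, and was called in none of these (adjusted p = 0.0805, 0.0842 and 0.0719, limma). Ependymal and some fibroblast markers were lower on the same activated arrays. All 5 tested of 10 ependymal markers fell (median -3.20), including Rarres2, which fell by 3.63 ± 0.35 (adjusted p = 6.55e-05, limma), and Rsph1, which fell by 3.20 ± 0.63 (adjusted p = 0.0031, limma). Summed ependymal signal was 4819 to 7310 on quiescent and 585 to 721 on activated arrays, and no marker of that list was at background on a whole group. Without shared-transcript probe sets 1 of 2 tested ependymal markers fell and Rarres2 was not called (-0.33, adjusted p = 0.627). With hybridisation controls as the scale 3 of 5 fell, and without quiescent array 1 or quiescent array 2 3 of 4. Of 8 fibroblast markers 3 were tested and 2 fell, Col1a1 by 4.70 ± 0.61 (adjusted p = 0.000294, limma) and Col1a2 at least 14.1-fold lower (adjusted p = 0.0014, limma), while Lum and Col3a1 were at background on all 6 arrays. Ogn, under the filter, went the other way, with 4.47, 5.28 and 4.77 on quiescent arrays, all below background, and 7.59, 6.24 and 7.30 on activated arrays, at least 2.60-fold higher. Slc22a6 differed by 0.25, and the groups overlapped. With no filter 2 of 8 fibroblast markers fell and 1 rose, and without quiescent array 3 2 of 5 fell and 1 rose. From the mean of probe sets 1 of 2 tested fell. The fibroblast sum was 1661 to 3192 on quiescent and 396 to 459 on activated arrays. Of 9 matched microglia markers only Csf1r was tested and was not called (-1.28, adjusted p = 0.132, limma). P2ry12, under the filter, was at least 5.71-fold lower, and Aif1, Tmem119, C1qa and C1qc were at background throughout. Without activated array 2, 1 of 2 tested microglia markers fell. Their sum was 387 to 701 on quiescent and 159 to 185 on activated arrays. The part of these cells in the Serpinf1 reading was not tested.

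**Figure D3:**
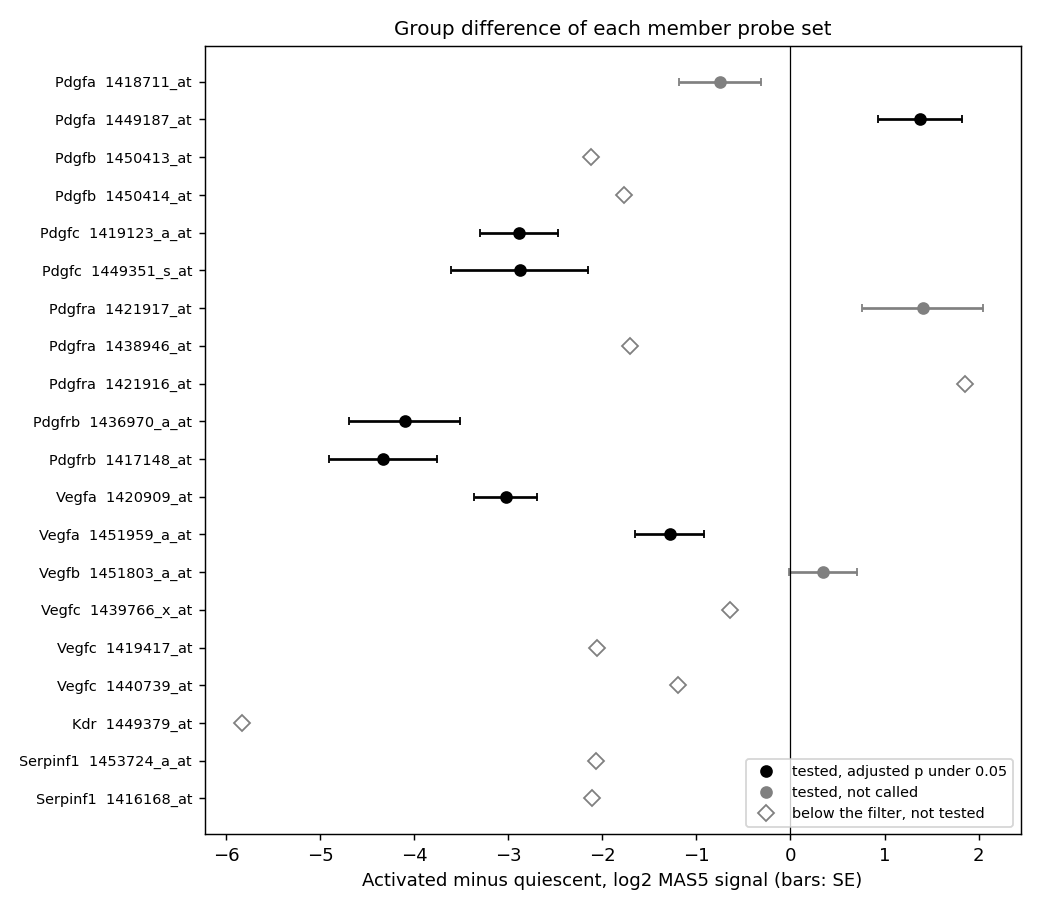
Activated minus quiescent difference in log2 MAS5 signal (horizontal axis) of the 20 member probe sets, with SE bars for the 10 that were tested. Both probe sets of Pdgfc, Pdgfrb and Vegfa lie below 0, whereas those of Pdgfa lie on both sides. Those of Pdgfra do too, but its untested probe sets are mostly at background.

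In the fit over all 22608 bright probe sets each member probe set was tested on its own. Of the 10 member probe sets tested, 6 fell, 1 rose and 3 were not called, beside 16.3% of all tested probe sets that fell and 15.6% that rose. The 6 were both probe sets of Pdgfc, Pdgfrb and Vegfa, and the 1 was the dimmer probe set of Pdgfa.

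The remaining PDGF and VEGF genes were mostly dim. Flt1, which encodes VEGFR1, the receptor of VEGF-A and VEGF-B, read 9.26, 9.85 and 7.98 on quiescent and 5.43, 5.02 and 5.96 on activated arrays. It fell by 3.56 ± 0.61 (adjusted p = 0.00149, limma), and its 4 probe sets differed by -6.18 to -3.56. The co-receptor Nrp1 differed by -1.14 ± 0.52 (adjusted p = 0.11, limma) and the PDGF receptor-like gene Pdgfrl by -0.45 ± 0.44 (adjusted p = 0.446, limma), and for both the groups overlapped. So 1 of the 3 tested genes fell and 0 rose in limma (1 and 0 at an unadjusted p under 0.05), with a median of -1.14 beside 0.01 over all tested genes. Without shared-transcript probe sets Flt1 was not among the tested genes, and 0 of the 2 that were tested fell. From the mean of probe sets 1 of 2 tested genes fell, namely Nrp1 (-1.4, adjusted p = 0.0467, limma). The 4 Nrp1 probe sets differed by -1.84 to -1.14. Below the filter, quiescent arrays were above activated ones for Nrp2 (difference -1.72), Pgf (at least 3.52-fold lower), Vegfd (difference -2.07) and Pdgfd (difference -2.32). Pgf was at or below background on 1 quiescent array. Vegfd and Pdgfd were so on 2 quiescent arrays each, so no fold is given for them. The groups overlapped for Flt4, the VEGFR3 gene. Endothelial marker levels, given with Kdr, moved with Flt1 too.

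Genes for proteins that bind PEDF went both ways. Plxdc2, a transmembrane receptor for PEDF, read 10.87, 9.53 and 10.27 on quiescent and 6.08, 7.34 and 7.18 on activated arrays and fell by 3.35 ± 0.51 (adjusted p = 0.000719, limma). Rpsa, which encodes the laminin receptor that is also a ribosomal protein, was 1.13 ± 0.21 higher (adjusted p = 0.00246, limma). Pnpla2, a triglyceride lipase and PEDF receptor, differed by -0.60 ± 0.36 (adjusted p = 0.22, limma), and the Wnt co-receptor gene Lrp6 by 0.02 ± 0.29 (adjusted p = 0.968, limma). Plxdc1 was not tested. Its brighter probe set was at or below background on all quiescent arrays and differed by -0.11, and its dimmer one differed by -3.07. The other Lrp6 probe set differed by 2.43, and from the mean of both Lrp6 was called higher (1.22, adjusted p = 0.0426, limma). In all, 1 of 4 tested genes fell and 1 rose, with a median of -0.29. From the mean of probe sets 1 fell and 2 rose (median 0.46), and the median was 0.26 with centred arrays and 0.35 with hybridisation controls as the scale.

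Proteases and carriers that release or hold these factors fell in 5 of 9 tested cases and rose in 0 by limma (5 and 0 at an unadjusted p under 0.05), with a median of -1.14 beside 0.01 over all genes. Sparc, a matrix protein that binds PDGF and VEGF, read 13.25, 12.93 and 13.01 on quiescent and 8.66, 9.63 and 9.11 on activated arrays and fell by 3.93 ± 0.31 (adjusted p = 3.42e-05, limma). The proprotein convertase gene Pcsk6 fell by 3.94 ± 0.59 (adjusted p = 0.0007, limma). Adamts1, a metalloprotease that binds VEGF, fell by 3.53 ± 0.49 (adjusted p = 0.000432, limma), and the endocytic receptor Lrp1 fell by 1.99 ± 0.31 (adjusted p = 0.000826, limma). Furin, the other called gene, fell by 1.14 ± 0.33 (adjusted p = 0.0209, limma). Its call was lost without quiescent array 1 or 2 or activated array 1 or 3 (adjusted p = 0.0506 to 0.0789). Pcsk5 (0.86, adjusted p = 0.291, limma, with 0.83 to 4.58 over its 5 probe sets) and Pcsk7 (1.3, adjusted p = 0.186, limma) were higher but not called. With arrays centred on their medians 4 fell and 1, Pcsk7, rose. Furin, Pcsk5 and Pcsk7 were chosen for mention after their values were seen. Several of these proteins, Sparc among them, are also made by vessel and glial cells, and the pericyte and endothelial sums moved the same way, a part that was not tested. Plat, the tissue plasminogen activator that cleaves PDGF-C and was chosen for mention after its values were seen, was under the filter and read 6.57, 7.0 and 8.61 against 2.60, 6.06 and 3.83. It was at least 4.88-fold lower in activated cells.

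**Figure D4:**
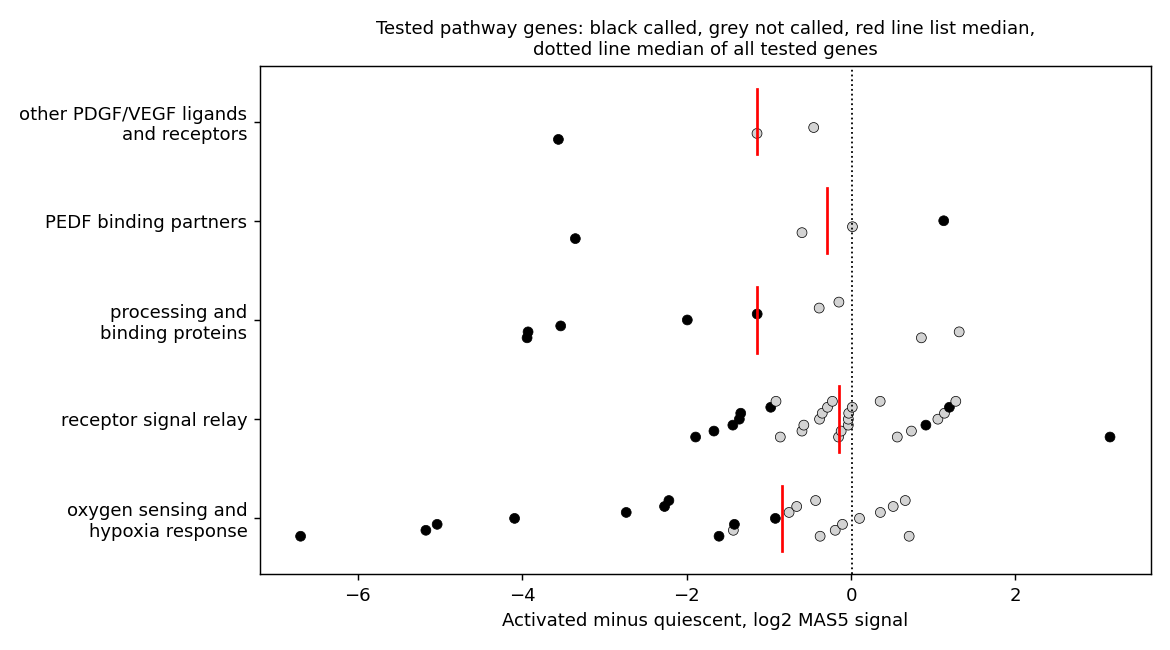
Activated minus quiescent difference in log2 MAS5 signal (horizontal axis) of the tested genes in 5 pathway lists, with called genes in black, others in grey, list medians as red lines and the median of all tested genes, 0.01, as a dotted line. The oxygen sensing and processing lists reach furthest to the left, and the signal relay list is centred near the dotted line at -0.15.

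The kinases and adaptors that relay receptor signals showed no common direction. Of 29 tested genes 3 rose, 6 fell and 20 were not called, with a median of -0.15. Prkca, a protein kinase C gene, fell by 1.89 ± 0.54 (adjusted p = 0.021, limma), Stat5b fell by 1.67 ± 0.46 (adjusted p = 0.0175, limma), Stat3 fell by 1.44 ± 0.36 (adjusted p = 0.0111, limma) and Src fell by 1.36 ± 0.37 (adjusted p = 0.0165, limma). The adaptor Shb, which binds VEGFR2, was at least 3.03-fold higher (adjusted p = 0.0444, limma), and Nras was 1.20 ± 0.26 higher (adjusted p = 0.00575, limma). The falls depended on scaling. After scaling to the hybridisation controls 6 of the 29 rose and 0 fell (median 0.49), and with arrays centred on their medians 8 rose and 0 fell (median 0.40). Shb was not called without quiescent array 1 (adjusted p = 0.0724) or quiescent array 2 (adjusted p = 0.0942), and Nras not without shared-transcript probe sets (adjusted p = 0.0847). Leaving out single arrays gave 1 to 5 higher and 2 to 6 lower genes. The higher count was 1 without quiescent array 1, activated array 1 or activated array 2, 2 without quiescent array 2 or activated array 3 and 5 without quiescent array 3. The lower count was 2 without activated array 1 or activated array 3 and 4 without activated array 2. Prkca was not called without quiescent array 3, activated array 1 or activated array 3 (adjusted p = 0.0597, 0.0726 and 0.0641). Stat5b was not called without activated array 2 (adjusted p = 0.06) or activated array 3 (adjusted p = 0.0569), nor Src without activated array 1 (adjusted p = 0.0664).

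Oxygen sensing and hypoxia genes were the pathway list that held the largest falls. Of 22 tested genes 10 fell and 0 rose in limma (11 and 0 at an unadjusted p under 0.05), with a median of -0.84. Hif3a, a hypoxia-inducible factor subunit, read 10.25, 10.45 and 10.45 on quiescent arrays and was below background on all activated arrays, at least 55.3-fold lower (adjusted p = 3.82e-05, limma). Epas1, which encodes HIF-2 alpha, read 13.18, 13.15 and 13.21 against 7.37, 8.94 and 8.12 and fell by 5.04 ± 0.38 (adjusted p = 3.26e-05, limma). Ndrg1, a hypoxia-induced gene, fell by 5.17 ± 0.56 (adjusted p = 0.000121, limma). Adm, which encodes the vasoactive peptide adrenomedullin, read 11.25, 11.38 and 6.45 on quiescent and 7.28, 4.53 and 5.0 on activated arrays. It fell by 4.09 ± 1.21 (adjusted p = 0.0242, limma), although quiescent array 3 lay within the activated range. This probe set carries a suffix for shared probes, and the other Adm probe set differed by -0.69. The Adm call was lost without quiescent array 1, quiescent array 2, activated array 2 or activated array 3 (adjusted p = 0.0989, 0.105, 0.0804 and 0.0752). Hif1a differed by 0.51 ± 0.27 (adjusted p = 0.162, limma), and with hybridisation controls as the scale it was called higher (adjusted p = 0.0379), whereas the mean of its probe sets gave -0.09. For the glycolytic targets Pgk1 and Ldha differences of -0.43 and -0.10 did not pass the test. Hif1a, Pgk1 and Ldha were chosen for mention after their values were seen. After scaling to the hybridisation controls 7 of these genes fell and 2 rose. Leaving out single arrays gave 7 to 11 lower and 0 to 1 higher genes. The lower count was 7 without quiescent array 2 and 8 without quiescent array 1 or activated array 2. It was 9 without activated array 1 or activated array 3. Without quiescent array 3, 11 fell and 1 rose. Epas1 is also a gene of endothelial cells and Ndrg1 of myelinating cells. The endothelial and pericyte sums were lower on the same activated arrays, and their part in these falls was not tested.

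The genes whose centred profiles over the 6 arrays lay closest to the called members were found by root mean square distance. For Vegfa they were Nacc2, at a distance of 0.14 log2 units, and Caskin2 at 0.16. Closest to Pdgfc were Nap1l5 at 0.21 and Tmem176b at 0.22. For Pdgfrb the nearest were Lcat at 0.27, which read 10.42, 10.67 and 11.43 against 5.36, 7.39 and 6.79, and Smim3 at 0.31. These likenesses rest on 6 arrays in 2 groups and carry no test.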

How the data were processed

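Per the labels' protocols, RNA of the sorted cells was extracted with a miRNeasy kit, and cDNA from Pico amplification (Nugen) was labelled with biotin. The deposited values are log2 signals from MAS5, a tool that the submitters' processing notes name. Its version, detection calls and the genome build are not stated in the sources at hand. The linear trimmed mean was 500.0 on every array, so scaling removes differences in RNA per cell. Groups and replicate numbers came from the labels. Same-numbered arrays of the 2 groups did not deviate together (correlations of 0.046, -0.052 and 0.021), so no block was used.

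The 64 control probe sets were left out, and 34945 probe sets with exactly 1 gene were kept. The brightest probe set stood for a gene, and genes with a mean at or above the 40th percentile (6.02) were tested with lmFit and eBayes with a trend, in limma 3.58.1 under R 4.3.3, over all genes and, separately, all probe sets. Symbols were updated through a RefSeq table of GRCm38.p6. A fold is a lower bound where any lower-group array did not exceed background. Values of the higher group were kept as read, also where they were at background, which was 5.67 on quiescent and 4.60 on activated arrays. The fit was also run on simulated data with independent noise and few changed genes. These arrays differ from that setting, so nothing is read from that run. Named were all members, the sort genes, the ligand, receptor and PEDF lists, up to 4 and 2 called genes of other pathway lists, 2 markers per cell type and 2 nearest profiles per called member, save where stated. Further cell type markers, among them Olig2, Pecam1 and Ogn, were named outside this rule with their values known. Members, lists, tests and alternatives were chosen with earlier results of these data known. Alternatives were other filters, scalings, treatments of low signals, rules for probe sets and models of variance, the replicate block and each array left out. Exact permutation tests used SciPy 1.17.1 and figures matplotlib 3.10.9.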

Additional observations from a re-analysis of the deposited data

How the results depend on the processing

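Over 21 alternatives, Pdgfrb and Vegfa stayed called lower in 21 of 21 and Pdgfc in 20 of 20 that gave it a value. The member counts were 3 lower and 0 higher with each single array left out (3 to 3 and 0 to 0). One member, Pdgfra, was called higher with arrays centred on their medians (1) and without a mean-variance trend (1). Pdgfra had a value under 14 of the 21 and missed the filter under the others, which include leaving out any one activated array. Pdgfa changed sign to 0.31 from the mean of its probe sets and was called under none of its 21 alternatives. Over all genes, centring on medians gave 3526 higher and 1191 lower and scaling to the hybridisation controls 3059 and 943, against 2004 and 2040, and the higher share of calls went from 49.6% to 74.8% and 76.4%. Leaving out single arrays gave 1291 to 2453 higher, the lowest without activated array 2, and 1599 to 2136 lower genes. With the replicate number as a block, 1955 genes were higher and 1979 lower, and 3 members were lower, so the block changed no member's call. Same-numbered arrays did not deviate together. Signal over background limits Pdgfb, Vegfc, Kdr, Serpinf1 and Pdgfra. The cause of these shifts was not tested.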
